A study of Mus musculus with 8 samples.

Results

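The genes described here encode the phase II conjugation enzymes of mouse liver. They were taken as all protein-coding rows of the count table whose symbol begins with Ugt1a, Ugt2a, Ugt2b, Ugt3a, Sult, Gsta, Gstm, Gstp, Gstt, Gstk, Gstz or Gsto and that hold at least 80 counts over the 8 libraries. Of 40838 rows, 64 protein-coding rows carried such a symbol and 47 reached the minimum. These were 9 Ugt1a, 8 Ugt2 (Ugt2a3 and the Ugt2b genes), 2 Ugt3a, 5 Sult1, 2 Sult2 and 1 other Sult gene, with 4 Gsta, 7 Gstm, 3 Gstp and 3 Gstt genes and 1 each of Gstk, Gstz and Gsto. The choice used symbols and total counts and no difference between groups. Ugt1a10, with 81 counts, lay just inside the minimum, and Sult2b1, with 29 counts, was the highest of the 17 below it.

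The livers came from C57BL/6 mice kept on a NASH diet, a feed that brings on fatty liver with inflammation, for 16 weeks in all. After 7 weeks the mice received an adeno-associated virus in which the TBG promoter, active in hepatocytes, drove either Lpcat3 or the fluorescent protein eGFP, and the diet went on for 9 weeks. Every library therefore carries both the diet and a virus: 4 libraries from livers given AAV-TBG-Lpcat3 are compared with 4 from livers given AAV-TBG-eGFP, and no untreated or chow-fed liver is part of the comparison. Lpcat3 encodes an acyltransferase that loads membrane phospholipids with polyunsaturated fatty acids. The question is how the conjugation genes stand when hepatocytes are made to carry more Lpcat3 in a liver with steatohepatitis.

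Phase II enzymes join a polar group to drugs, hormones, bilirubin, bile acids and reactive lipid products so that these can leave the cell through efflux pumps. UDP-glucuronosyltransferases (UGT) add a sugar, sulfotransferases (SULT) add sulfate and glutathione S-transferases (GST) add glutathione. The hepatocyte is the main site of all of these in the body, and many of the genes are known to respond to the nuclear receptors CAR, PXR and PPARA, to the aryl hydrocarbon receptor and to the oxidant-sensing factor NRF2.

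Depth was 22433625 to 25651874 counts per library, and 17438 genes passed the filter on low counts. Lpcat3 itself, the check on the labels, read 158, 148, 133 and 173 CPM (read counts after TMM scaling of the libraries to 1 size) in eGFP replicates 1 to 4 and 274, 401, 465 and 311 CPM in Lpcat3 replicates 1 to 4, so the groups did not overlap. Its log2 fold change was 1.25 (SE 0.17; edgeR adjusted p = 0.164; DESeq2 adjusted p = 9.96e-09). Alb, the albumin gene, read 28657 to 56982 CPM, as a liver label requires. The labels do not say that the libraries came from separate animals, and p-values therefore reflect the spread among these libraries alone, which may in part be technical. In bulk tissue, fewer cells of a type and less RNA per cell cannot be told apart. The sample titles also carry code numbers whose meaning the labels do not give. Codes 1290 and 1317 mark eGFP replicates 1, 2 and 3 with Lpcat3 replicate 1, and codes 1344 and 1345 mark eGFP replicate 4 with Lpcat3 replicates 2, 3 and 4. Libraries numbered 3 lay farthest apart on the first principal component, eGFP replicate 3 at -46.1 and Lpcat3 replicate 3 at 51.0. Values are given with and without these libraries where a result rests on them.

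No difference between the groups passed the test in any of these genes. Of the 46 that passed the filter (all but Ugt1a10), 0 differed between the groups at an adjusted p under 0.05 (edgeR quasi-likelihood test; smallest adjusted p = 0.569), where 0.00573% of all genes tested did so. DESeq2 also called 0 of 46, against 0.275% of all genes. At an unadjusted p under 0.05 edgeR counted 2 of the 46, or 4.35%, which is below the 8.48% of all genes, and DESeq2 counted 3. The 2 genes were Ugt1a5 and Gsta1, and DESeq2 added Ugt2b34. In 1 gene, Ugt1a5, the groups did not overlap, which is 2.17% of the members tested against 4.16% of all genes. The number at an unadjusted p under 0.05 depended on single libraries. It was 0 without eGFP replicate 3, 1 without eGFP replicate 1 or Lpcat3 replicate 2, 9 without eGFP replicate 4 and 7 without Lpcat3 replicate 1. The share of all genes at that p was not worked out for DESeq2 or with libraries left out. Whether these counts depart from it is therefore not known.

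Small differences leaned upward. The log2 fold change, Lpcat3 over eGFP, was above 0 in 34 of the 46 genes, or 73.9%, against 48.5% of all genes, with a median of 0.11 against -0.01 for all genes. In 32 of the 46 it lay within 0.25 of 0. This lean rested on the libraries numbered 3. Of the 47 genes, 24 (51.1%) had their lowest level of all libraries in eGFP replicate 3, against 21.6% of all genes, and 26 (55.3%) had their highest in Lpcat3 replicate 3, against 20.4%. Without eGFP replicate 3 alone 28 of 47 were above 0, with a median of 0.06. Without Lpcat3 replicate 3 alone it was 29 of 46, with a median of 0.04. Without both libraries 15 of 46 were above 0, with a median of -0.04. Scaling by library totals instead of TMM, which moved the median of all genes to -0.13, gave 22 of 46 and a median of the members of -0.01. The members' median thus stayed above that of all genes with library totals. Within codes 1290 and 1317, 31 of 46 were above 0, and within codes 1344 and 1345 it was 16 of 46. Each of these counts rests on a lone library of a group, Lpcat3 replicate 1 in the former and eGFP replicate 4 in the latter. The share of all genes above 0 was not worked out with libraries left out, with library totals or within codes.

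The UGT1A enzymes glucuronidate bilirubin, phenols and many drugs. Mouse Ugt1a genes are made from 1 locus, in which each gene has a first exon of its own joined to the same downstream exons, so that 50.4% to 70.8% of the 101-base windows of each gene's exons, the length of a read, also occur in another gene. Reads in the common exons cannot be assigned to a gene, and how the authors counted them is not given in the sources used here. Summed over the 9 genes, the level was 536 ± 67.0 CPM in eGFP and 588 ± 36.3 CPM in Lpcat3 livers (SD, n = 4 each). The family median log2 fold change was 0.07 with 6 of 8 genes tested above 0, but -0.06 with library totals and -0.03 without the libraries numbered 3, where 2 of 8 were above 0. Relative to the median of all genes it was 0.08 with TMM and 0.07 with library totals.

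Ugt1a5 was the member with the smallest p. The eGFP libraries read 30.4, 30.1, 23.2 and 26.1 CPM and the Lpcat3 libraries 45.2, 30.7, 34.9 and 31.3 CPM. Each Lpcat3 library lay above each eGFP library, by little in 3 of them, and Lpcat3 replicate 1 stood highest. The mean was 1.29-fold higher, and the log2 fold change was 0.37 (SE 0.14; edgeR unadjusted p = 0.0230, adjusted p = 0.569). It was 0.23 without Lpcat3 replicate 1 and 0.50 with the code division in the fit as well (SE 0.13; edgeR unadjusted p = 0.0030, adjusted p = 0.99997). Within codes 1290 and 1317, where Lpcat3 replicate 1 is alone in its group, the log2 difference was 0.71. Within 1344 and 1345, where eGFP replicate 4 is alone, it was 0.30. As 63.1% of its windows occur in other Ugt1a genes, this row is uncertain. Its promoter is printed because each Ugt1a gene starts from a promoter of its own. The window around its start (RefSeq, GRCm38.p6, chr1:88165762-88166061, plus strand), holds the xenobiotic response core GCGTG, in capitals.
Ugt1a5 promoter: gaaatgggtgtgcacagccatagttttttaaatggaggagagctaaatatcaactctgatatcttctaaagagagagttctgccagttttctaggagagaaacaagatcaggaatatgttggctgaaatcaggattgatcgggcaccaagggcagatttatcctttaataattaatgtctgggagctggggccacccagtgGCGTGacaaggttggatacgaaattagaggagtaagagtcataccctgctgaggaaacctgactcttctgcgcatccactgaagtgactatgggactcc

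Ugt1a1, whose enzyme is the one that conjugates bilirubin, had the most counts of the family. Its eGFP libraries read 211, 262, 201 and 317 CPM and its Lpcat3 libraries 250.8, 312, 314 and 264 CPM. The groups overlapped, and the log2 fold change was 0.20 (SE 0.15; edgeR adjusted p = 0.676). Ugt1a6a and Ugt1a6b, which encode phenol-conjugating enzymes and share 98.4% of their coding bases, were the steadiest, at 114 ± 6.70 against 118 ± 5.76 CPM and at 121 ± 8.79 against 124 ± 7.94 CPM (eGFP against Lpcat3, SD, n = 4 each). Across all 8 libraries Ugt1a6a varied by 5.34% (coefficient of variation), the least of the 47 genes. Ugt1a9 was at 17.7 ± 5.66 against 17.4 ± 3.89 CPM and Ugt1a2 at 5.39 ± 0.523 against 5.01 ± 1.05 CPM. Ugt1a7c, Ugt1a8 and Ugt1a10 stayed at or under 2.30 CPM in every library.

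All 8 Ugt2 genes, whose enzymes act on steroids, bile acids and drugs, had a log2 fold change above 0 with TMM scaling, from 0.0011 (Ugt2b37) to 0.53 (Ugt2b1) with a median of 0.17, but 4 of 8 with library totals. Relative to the median of all genes the family median was 0.17 with TMM and 0.16 with library totals. Without the libraries numbered 3, 7 of 8 were above 0, with a median of 0.09, and with the code in the fit the median was 0.02. The summed level was 2352 ± 295 CPM in eGFP and 2750 ± 493 CPM in Lpcat3 livers (SD, n = 4 each). By code, the sums of 2151 to 2256 CPM in the 4 libraries of 1290 and 1317 lay below those of 2599 to 3305 CPM in the other 4. None of the 8 passed the test between groups (edgeR adjusted p = 0.606 to 0.999).

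Ugt2b5 had the highest level of the UGT genes per kb of exon, at 359.9 CPM per kb. The eGFP libraries read 566, 607, 687 and 714 CPM and the Lpcat3 libraries 581, 735, 770.1 and 690.2 CPM, which overlap (log2 fold change 0.11, SE 0.12; edgeR adjusted p = 0.779). It shares 97.04% of its coding bases with Ugt2b38, and 24.6% of its windows occur in another gene. Ugt2b34, with the smallest p of the family, read 557, 525, 536 and 608 CPM in eGFP and 537, 726, 712 and 632 CPM in Lpcat3 livers. Lpcat3 replicate 1 lay among the eGFP libraries and the other 3 lay above all of them. The log2 fold change was 0.23 (SE 0.11; edgeR unadjusted p = 0.0693, adjusted p = 0.606), and 0.09 with the code in the fit. Ugt2b36 (315 ± 32.1 against 318 ± 28.8 CPM), Ugt2b35 (194 ± 21.2 against 226 ± 39.2 CPM), Ugt2b38 (125 ± 15.6 against 136 ± 18.0 CPM) and Ugt2b37 (12.3 ± 1.84 against 12.3 ± 1.53 CPM) had ratios of Lpcat3 to eGFP means of 1.002 to 1.16. Ugt2b1 and Ugt2a3 are described with the code numbers.

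The UGT3A enzymes use sugars other than glucuronic acid. Ugt3a2 read 310.3, 318, 301 and 410 CPM in eGFP and 323, 353, 378 and 332 CPM in Lpcat3 livers, so that its highest library was an eGFP one. Its log2 fold change was 0.05 (SE 0.11; edgeR adjusted p = 0.897), and -0.07 with library totals. Ugt3a1 was at 90.1 ± 16.5 against 92.4 ± 15.8 CPM. The family median of 0.04 was -0.07 with library totals and -0.12 without the libraries numbered 3. Relative to the median of all genes it was 0.05 both with TMM and with library totals.

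Cytosolic sulfotransferases of the SULT1 family act on phenols, catecholamines, thyroid hormone and oestrogen. Sult1a1, the phenol sulfotransferase gene and the most counted, read 119.8, 135, 63.8 and 149.9 CPM in eGFP and 129, 125, 202 and 139 CPM in Lpcat3 livers. The lowest value was eGFP replicate 3 and the highest Lpcat3 replicate 3, and the other 6 libraries lay between 119.8 and 149.9 CPM. The log2 fold change was 0.34 (SE 0.26; edgeR adjusted p = 0.679), and -0.04 without those libraries. Sult1d1, which acts on catecholamines, was at 92.8 ± 22.2 against 104 ± 23.1 CPM, and Sult1c2 at 5.99 ± 1.88 against 5.20 ± 1.45 CPM. Sult1e1, the oestrogen sulfotransferase gene, was low and the most variable of the 47 genes (coefficient of variation 70.4%), at 0.557 to 2.25 CPM in eGFP and 0.199 to 1.89 CPM in Lpcat3 livers. The family median was 0.17 with 3 of 5 above 0, and without the libraries numbered 3 it was -0.11 with 0 of 5 above 0.

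Sult2a8, whose enzyme sulfates bile acids, had the largest log2 fold change of the members, 0.95 (SE 0.48; edgeR unadjusted p = 0.0771, adjusted p = 0.615). The eGFP libraries read 143, 176, 137 and 433 CPM and the Lpcat3 libraries 202, 504, 718 and 289 CPM. Replicate 4 of the eGFP group lay above 2 of the Lpcat3 libraries, so the groups overlapped. The log2 fold change was 0.58 without Lpcat3 replicate 3, 1.49 without eGFP replicate 4 and 0.31 with the code in the fit. Sult2a7 stayed between 0.297 and 1.28 CPM. The median log2 fold change of the 2 Sult2 genes was 0.80, and 0.33 without the libraries numbered 3. Sult5a1, the other sulfotransferase gene that reached the minimum, read 1.41, 2.001, 3.30 and 4.58 CPM in eGFP and 2.97, 3.58, 5.75 and 2.78 CPM in Lpcat3 livers (log2 fold change 0.41, SE 0.37; edgeR adjusted p = 0.735). The remaining Sult genes of the table (Sult1c1, Sult2a1 to Sult2a6, Sult2b1, Sult3a1, Sult3a2, Sult4a1, Sult6b1 and Sult6b2) had 0 to 29 counts over all 8 libraries. The other genes below the minimum were Ugt2a1, Ugt2a2, Gstt4 and Gsto2.

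Alpha-class glutathione transferases detoxify peroxidised lipids and aldehydes, and the members differed in sign. Gsta3 and Gsta4 had log2 fold changes above 0, and Gsta1 and Gsta2 below 0, with a median of -0.03. Gsta1 read 36.8, 32.7, 45.8 and 16.9 CPM in eGFP and 21.6, 19.4, 16.4 and 26.3 CPM in Lpcat3 livers. The first 3 eGFP libraries lay above all Lpcat3 libraries, and eGFP replicate 4 lay next to the lowest of them. The log2 fold change was -0.66 (SE 0.27; edgeR unadjusted p = 0.0370, adjusted p = 0.581), -0.46 without eGFP replicate 3 and -0.28 with the code in the fit. Within codes 1290 and 1317, where Lpcat3 replicate 1 is alone in its group, the log2 difference was -0.81. Within 1344 and 1345, where eGFP replicate 4 is alone, it was 0.26, a change of sign between them. The row is not independent of its neighbours, since 80.4% of the windows of Gsta1 occur in another gene. The gene model Gm3776, which shares most of them, read 34.9, 32.1, 45.2 and 16.6 CPM in eGFP and 20.9, 19.3, 16.4 and 25.9 CPM in Lpcat3 livers, nearly the values of Gsta1. Gsta2, with 97.6% of its coding bases in common with Gsta1, was at 20.3 ± 2.30 against 18.6 ± 5.16 CPM.

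Gsta3 carried most of the family's reads. Its eGFP libraries read 932, 987, 649.6 and 1133 CPM and its Lpcat3 libraries 974, 1005, 1230.4 and 967 CPM. The low library was eGFP replicate 3 and the high one Lpcat3 replicate 3. The log2 fold change was 0.17 (SE 0.17; edgeR adjusted p = 0.748), and -0.05 without these libraries, where 0 of the 4 Gsta genes were above 0. Gsta4, whose enzyme acts on the lipid aldehyde 4-hydroxynonenal, was at 39.7 ± 7.05 against 41.9 ± 5.87 CPM. The promoters of Gsta3 and Gsta1 are printed because these windows, from members of 1 family, hold different motifs. Whether the motifs have a part in the levels was not tested. The Gsta3 window (RefSeq, GRCm38.p6, chr1:21240335-21240634, plus strand) holds the antioxidant response core TGACNNNGC, to which NRF2 binds with its MAF partners. The Gsta1 window (chr9:78230419-78230718, plus strand) holds GCGTG and also TTCNNNGAA, the core bound by STAT5, a motif added after the values were seen. Capitals mark the matches.
Gsta3 promoter: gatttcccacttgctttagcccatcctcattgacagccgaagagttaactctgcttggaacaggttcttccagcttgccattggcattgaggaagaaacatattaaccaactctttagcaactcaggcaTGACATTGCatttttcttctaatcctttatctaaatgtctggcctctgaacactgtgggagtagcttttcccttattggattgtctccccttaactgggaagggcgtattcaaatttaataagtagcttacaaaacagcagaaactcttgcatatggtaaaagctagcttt
Gsta1 promoter: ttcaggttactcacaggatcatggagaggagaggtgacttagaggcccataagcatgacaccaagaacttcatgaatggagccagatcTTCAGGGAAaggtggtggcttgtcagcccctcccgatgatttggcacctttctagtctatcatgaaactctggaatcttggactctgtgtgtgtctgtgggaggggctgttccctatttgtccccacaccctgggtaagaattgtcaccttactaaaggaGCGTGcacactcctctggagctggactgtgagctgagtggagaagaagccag
Of 51 promoter windows that the table holds for 42 of the members, 3 (5.88%) held TGACNNNGC on either strand (Gsta3, Gstm5 and Gstm7), against 12.4% of all 32851 windows. GCGTG was in 11 windows (21.6%) of 10 members, among them Gstp1 and Gstm1, against 32.4%, and TTCNNNGAA in 3 (5.88%; Gsta1, Gstm6 and Ugt1a6a) against 8.30%. A match describes the letters of the window and is not a measured binding site.

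Gstm1 had the highest level per kb of exon of the 47 genes, at 1236 CPM per kb, followed by Ugt2b5 and Gstp2 at 359.9 and 359 CPM per kb, which do not differ beyond their spread. It encodes the main mu-class enzyme of mouse liver. Its eGFP libraries read 2198, 1801, 1551 and 1878 CPM and its Lpcat3 libraries 1846, 1761, 1534 and 1999 CPM. The groups covered nearly the same range, and the log2 fold change was -0.06 (SE 0.13; edgeR adjusted p = 0.899), which turned to 0.04 without eGFP replicate 1 and to 0.01 without Lpcat3 replicate 3. Gstm4, with the smallest p of the family, read 40.9, 36.4, 33.1 and 35.5 CPM against 36.8, 33.5, 31.2 and 34.2 CPM (log2 fold change -0.10, SE 0.08; edgeR adjusted p = 0.694). Gstm was the family with the most members below 0, 5 of 7 with TMM and 7 of 7 with library totals, and also 7 of 7 without the libraries numbered 3, at a median of -0.10, -0.20 and -0.08. Library totals moved the median of all genes to -0.13. Relative to all genes the Gstm median was -0.09 with TMM and -0.07 with library totals. The downward direction rested on single libraries: without eGFP replicate 1, 4 of 7 were above 0 with a median of 0.03, and without Lpcat3 replicate 3, 3 of 7 were, with a median of -0.01. Gstm3 spread the widest, at 196 to 361 CPM in eGFP and 105 to 402 CPM in Lpcat3 livers. In Lpcat3 replicate 3, where 26 members were at their highest, Gstm3 was at its lowest. Gstm2 (88.7 ± 20.4 against 82.8 ± 16.5 CPM), Gstm6 (69.5 ± 8.66 against 72.3 ± 5.19 CPM), Gstm7 (29.0 ± 2.201 against 29.6 ± 2.75 CPM) and Gstm5 (3.70 ± 0.675 against 3.43 ± 0.443 CPM) differed by less than their spread.

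The pi class holds Gstp1 and Gstp2, near-identical neighbours on chromosome 19, and the more distant Gstp3. Gstp1 read 388, 368, 443 and 458 CPM in eGFP and 369, 582, 626 and 437 CPM in Lpcat3 livers, and Gstp2 read 336, 316, 386 and 405 CPM against 320.1, 507, 544 and 385 CPM. In both, Lpcat3 replicates 2 and 3 lay above every other library, and Lpcat3 replicates 1 and 4 lay within the eGFP range. The log2 fold changes were 0.28 (SE 0.17; edgeR adjusted p = 0.645) and 0.28 (SE 0.17; edgeR adjusted p = 0.646). With the code in the fit they were 0.07 and 0.06, and for Gstp1 the value was 0.16 without Lpcat3 replicate 3 and 0.15 with library totals. Relative to the median of all genes the family median was 0.29 with TMM and 0.27 with library totals. Gstp3 went the other way, at 16.1, 14.7, 12.03 and 10.7 CPM in eGFP and 13.0, 8.22, 9.49 and 11.6 CPM in Lpcat3 livers (log2 fold change -0.33, SE 0.17; edgeR unadjusted p = 0.0808, adjusted p = 0.616). The start of each coding sequence is printed to show what a read can tell apart. Capitals mark bases that differ from Gstp1 at the same position, counted from the first base of the start codon; the stretch is coding bases 1 to 150, which span 4 of 7 coding exons (GENCODE M21, GRCm38, minus strand; coding parts at chr19:4035476-4037863 for Gstp1, chr19:4040354-4042165 for Gstp2 and chr19:4057533-4059424 for Gstp3).
Gstp1: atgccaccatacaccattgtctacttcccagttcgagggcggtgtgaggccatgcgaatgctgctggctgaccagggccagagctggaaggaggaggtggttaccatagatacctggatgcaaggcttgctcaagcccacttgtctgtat
Gstp2: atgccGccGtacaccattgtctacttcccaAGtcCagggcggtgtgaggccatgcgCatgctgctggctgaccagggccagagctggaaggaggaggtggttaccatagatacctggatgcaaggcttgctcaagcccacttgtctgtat
Gstp3: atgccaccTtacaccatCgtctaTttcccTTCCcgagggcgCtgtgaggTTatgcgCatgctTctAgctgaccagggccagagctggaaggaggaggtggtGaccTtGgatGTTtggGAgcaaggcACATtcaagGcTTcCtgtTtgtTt
Gstp2 differs from Gstp1 at 12 of 630 coding bases, 6 of them in this stretch, while Gstp3 differs at 178, 31 of them here. Accordingly 24.9% of the windows of Gstp1 and 46.8% of those of Gstp2 occur in another gene, and 0% of those of Gstp3. Gstp-ps, a row that is annotated as a pseudogene and so is no member, read 249 to 321 CPM in eGFP and 253 to 427 CPM in Lpcat3 livers and followed Gstp1 and Gstp2 across the libraries. How reads were split between these 3 rows is not known, so their parallel values are not 3 separate measurements.

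**Figure D1:**
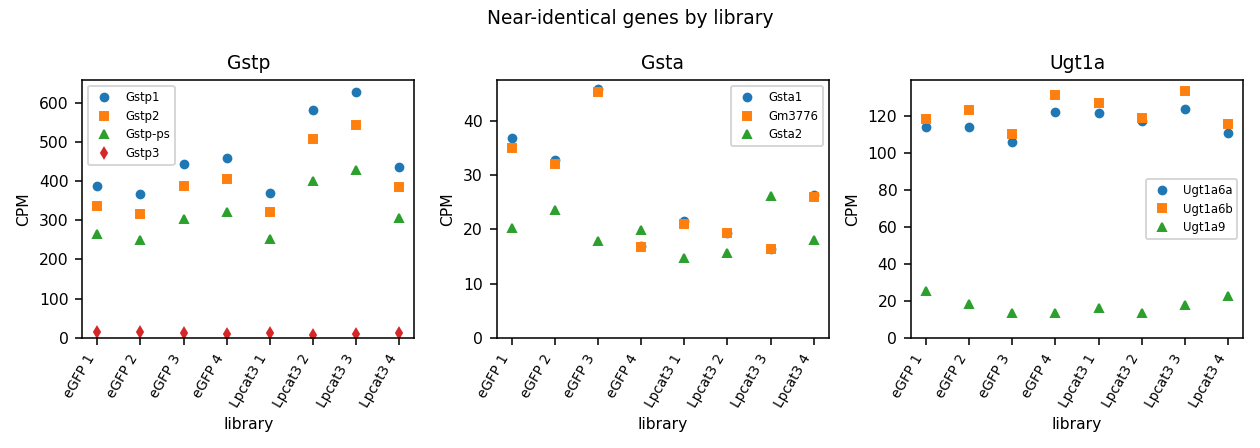
CPM in each of the 8 libraries for near-identical genes of the Gstp, Gsta and Ugt1a families, 1 panel each with a linear axis from 0. Gsta1 and Gm3776 nearly coincide in every library, Gstp1, Gstp2 and Gstp-ps follow each other, and Gstp3 stays at 8.22 to 16.1 CPM.

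Theta-class genes had a median log2 fold change of 0.21, and -0.03 without the libraries numbered 3. Gstt1 read 149, 157, 103 and 161 CPM in eGFP and 156, 156, 171 and 144 CPM in Lpcat3 livers, with eGFP replicate 3 alone below the rest (log2 fold change 0.14, SE 0.13; edgeR adjusted p = 0.749). Gstt2 read 21.9, 20.1, 15.5 and 30.5 CPM against 23.2, 25.8, 25.03 and 28.0 CPM, and its highest library was eGFP replicate 4 (log2 fold change 0.21, SE 0.18; edgeR adjusted p = 0.709). Gstt3 was at 22.8 ± 11.2 against 28.6 ± 10.8 CPM. Gstz1, whose enzyme isomerises maleylacetoacetate in the breakdown of tyrosine, read 545, 641, 451 and 671 CPM in eGFP and 587, 644, 738 and 589 CPM in Lpcat3 livers (log2 fold change 0.15, SE 0.14; edgeR adjusted p = 0.741). Gstk1, of the mitochondrial and peroxisomal kappa class, read 51.5, 62.2, 48.7 and 66.5 CPM against 58.5, 61.1, 73.7 and 60.1 CPM (log2 fold change 0.15, SE 0.12; edgeR adjusted p = 0.694). Gsto1, an omega-class thioltransferase gene, was at 36.6 ± 6.41 against 40.6 ± 6.58 CPM. In all 3, Lpcat3 replicate 3 was the highest library. Their log2 fold changes of 0.15 came to a median of -0.03 without the libraries numbered 3, where 0 of 3 were above 0.

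**Figure D2:**
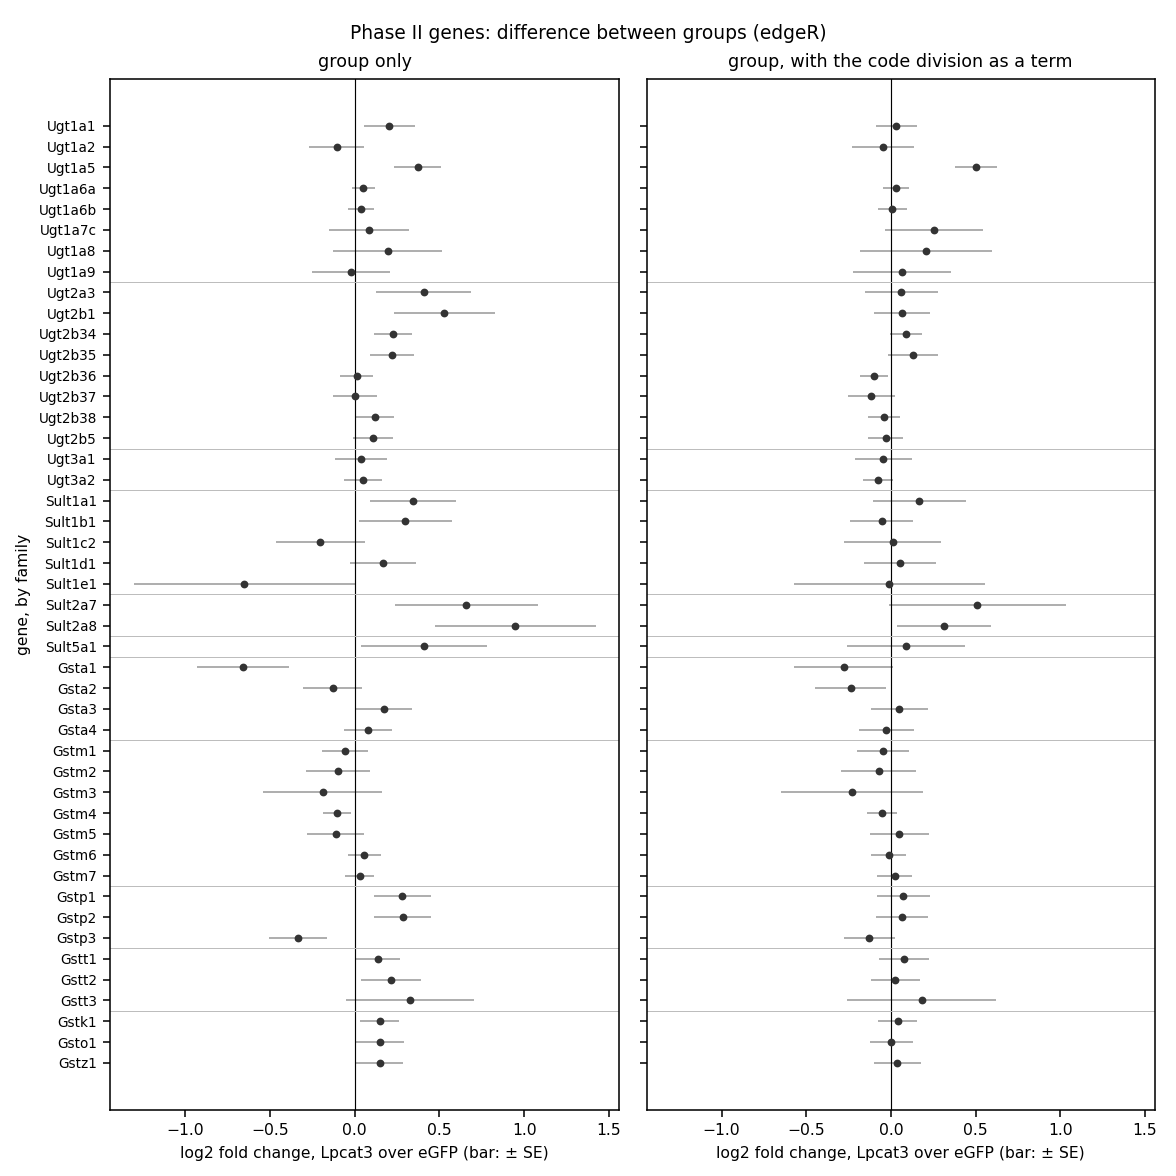
Log2 fold change of each of the 46 genes, Lpcat3 over eGFP, with bars of 1 SE, from edgeR; the left panel is the fit with the group alone and the right panel the fit that also holds the code division. On the left values run from -0.66 (Gsta1) to 0.95 (Sult2a8). On the right they run from -0.28 to 0.51, a narrower range, but some genes, Ugt1a5 and Gsta2 among them, lie farther from 0 there.

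More members differed by the codes in the titles than by group, at an unadjusted p. This division was chosen after seeing the data, and it is uneven between the groups. In a fit with group and code, 17 of 46 members (37.0%) had an unadjusted p under 0.05 for the code, against 12.2% of all genes, 14 of them higher and 3 lower with codes 1344 and 1345. None passed at an adjusted p (edgeR; 0 of 46, smallest adjusted p = 0.0850 for Ugt2b1, against 0.0745% of all genes), but Ugt2b1 did without Lpcat3 replicate 3 (0.0466) or both libraries numbered 3 (0.0239), and both Ugt2b1 (0.0415) and Sult2a8 (0.0183) did without Lpcat3 replicate 4. In 10 of 46 (21.7%) the 2 sets of libraries did not overlap, against 12.7% of all genes, 9 of them higher with codes 1344 and 1345 (Ugt1a1, Ugt2a3, Ugt2b1, Ugt2b34, Ugt2b5, Ugt3a2, Sult1b1, Sult2a8 and Gstt2) and 1 lower (Gstp3). The code difference was above 0 in 33 of 46, with a median of 0.21, against 48% of all genes and a median of -0.01. The 17 depended on single libraries and on scaling. It was 7 without eGFP replicate 4 (14.9%, against 3.98% of all genes) and 8 without Lpcat3 replicate 1 (17.4% against 7.71%). In these 2 settings a code set holds a single group, and the code difference rests on a lone library of the other set. Without eGFP replicate 3 it was 20 (42.6% against 11.6%). With library totals it was 11 (23.9% against 20.4%), of which 4 rather than 14 were higher, the median of all genes being then -0.18.

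Of the members higher with codes 1344 and 1345, Sult2a8 and Ugt2b1 had the largest code differences. Sult2a8 was at 165 ± 30.1 CPM with codes 1290 and 1317 and 486 ± 179 CPM with codes 1344 and 1345 (SD, 4 libraries each), a code difference of 1.41 on the log2 scale (SE 0.28; edgeR unadjusted p = 9.7e-04, adjusted p = 0.147). The low-count Sult1e1 had a larger difference in the other direction, -1.52 (SE 0.58; edgeR unadjusted p = 0.0302, adjusted p = 0.364), with overlapping sets, at 0.557 to 2.25 CPM with codes 1290 and 1317 and 0.199 to 0.928 CPM with the others. Ugt2b1 read 301, 319.9 and 276 CPM in eGFP replicates 1 to 3 and 301 CPM in Lpcat3 replicate 1, against 545 CPM in eGFP replicate 4 and 550.5, 764 and 467 CPM in Lpcat3 replicates 2 to 4. The lone eGFP library of codes 1344 and 1345 thus stood with the Lpcat3 libraries of those codes and the lone Lpcat3 library of codes 1290 and 1317 with the eGFP ones. The Ugt2b1 code difference was 0.92 (SE 0.17; edgeR adjusted p = 0.0850), and its group difference of 0.53 became 0.07 in that fit. Ugt2a3 read 118, 149, 98.3 and 134 CPM with codes 1290 and 1317 and 213, 184, 285 and 165 CPM with the others (code log2 difference 0.73, SE 0.22). Sult1b1, whose enzyme acts on thyroid hormone and phenols, read 15.1, 19.3, 11.8 and 16.2 CPM against 28.5, 26.3, 29.0 and 20.4 CPM (code log2 difference 0.77, SE 0.19). The promoter windows of Ugt2b1 (RefSeq, GRCm38.p6, chr5:86926454-86926753, minus strand) and of the upstream start of Sult2a8 (chr7:14446538-14446837, minus strand) are printed because these members had the largest code differences above 0. Neither window holds the 3 motifs searched, which says only that those letters are not in these bases.
Ugt2b1 promoter: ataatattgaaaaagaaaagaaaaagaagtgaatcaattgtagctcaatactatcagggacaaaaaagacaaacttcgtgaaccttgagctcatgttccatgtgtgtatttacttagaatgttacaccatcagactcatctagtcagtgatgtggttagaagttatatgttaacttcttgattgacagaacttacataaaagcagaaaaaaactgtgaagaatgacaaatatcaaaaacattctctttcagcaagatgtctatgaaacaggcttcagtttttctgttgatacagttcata
Sult2a8 promoter: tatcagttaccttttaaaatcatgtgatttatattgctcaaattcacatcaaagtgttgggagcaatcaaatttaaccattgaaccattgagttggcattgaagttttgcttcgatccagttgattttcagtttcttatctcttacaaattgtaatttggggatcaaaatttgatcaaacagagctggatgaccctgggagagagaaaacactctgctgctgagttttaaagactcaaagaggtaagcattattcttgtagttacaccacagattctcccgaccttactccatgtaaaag

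**Figure D3:**
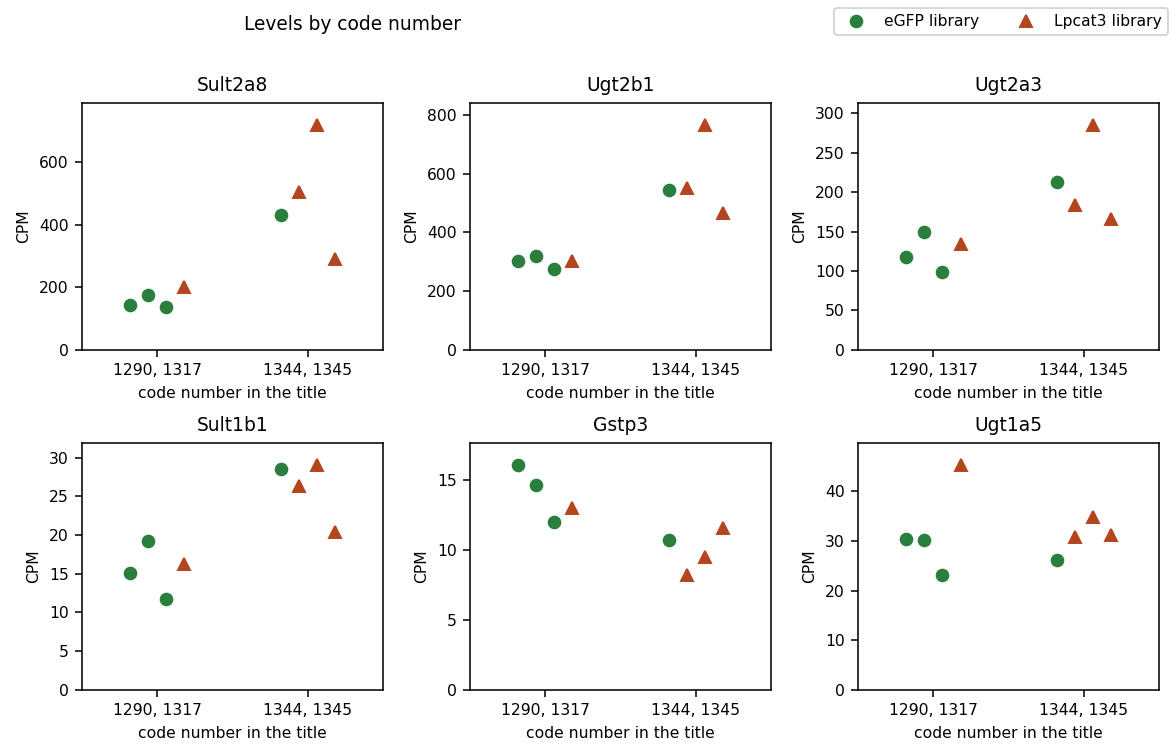
CPM by code number for 6 genes, with 4 libraries at each position, eGFP as circles and Lpcat3 as triangles, on linear axes from 0. In Sult2a8, Ugt2b1, Ugt2a3 and Sult1b1 all 4 libraries of codes 1344 and 1345, the eGFP one included, lie above those of 1290 and 1317; Gstp3 is the reverse, and Ugt1a5 separates by group.

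With the code as a term, 1 of 46 members (2.17%) had an unadjusted p under 0.05 for the group, against 4.05% of all genes, and it was Ugt1a5. The number above 0 was then 28 of 46 and the median group difference 0.03. Whether the codes stand for cages, litters or days is not given, and code and group are partly confounded, so the parts they have in a difference cannot be fully told apart.

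Other values moved with the same divisions of the libraries, and their part in the results above was not tested. The summed level of 7 pericentral hepatocyte markers, genes of the zone around the central vein, was 5821 to 8804 CPM with codes 1290 and 1317 and 10018 to 13566 CPM with codes 1344 and 1345, without overlap. By group it was 5821 to 11636 CPM in eGFP and 8804 to 13566 CPM in Lpcat3 livers, with 6 of 7 genes above 0. The 6 periportal markers overlapped, at 1983 to 3932 CPM against 2952 to 5147 CPM by code. Of 10 general hepatocyte markers, 8 were above 0, with sums of 69918 to 98247 CPM in eGFP and 76099 to 110355 CPM in Lpcat3 livers. Of 10 macrophage markers, 9 were below 0, with sums of 286 to 557 CPM in eGFP and 200.1 to 360.4 CPM in Lpcat3 livers, and by code 356 to 557 CPM against 200.1 to 342 CPM. Kupffer cell markers were below 0 in 4 of 6 (297 to 433 against 260.04 to 468 CPM) and stellate cell markers in 7 of 9 (451 to 555 against 293 to 539 CPM). Endothelial markers were below 0 in 6 of 6 (384 to 422 against 305 to 385 CPM), and by code at 385 to 422 against 305 to 384 CPM, without overlap. Lymphocyte markers were below 0 in 5 of 5 tested (2.94 to 7.43 against 3.02 to 3.71 CPM). At an unadjusted p under 0.05 between groups (edgeR), 5 of 10 macrophage, 3 of 6 endothelial and 2 of 6 Kupffer cell markers were lower and 0 higher. Of the cholangiocyte markers 2 of 6 were higher and 0 lower. Among pericentral markers 1 of 7 was higher, and among periportal markers 1 of 6 was lower. The remaining marker lists had 0 in either direction. Of all genes, 8.48% were at that p in either direction. Cholangiocyte markers were above 0 in 5 of 6 (38.2 to 86.5 against 39.6 to 128 CPM). Gut and pancreas markers summed to 3.69 to 4.79 CPM, with Prss1 at 0.

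Genes that supply the conjugation reactions were described from lists chosen with earlier results known, and 0 genes of any of these lists passed between groups (edgeR adjusted p). Of 9 genes for the UDP-sugar donor and glucuronides, 7 were below 0 (median -0.17). Ugdh, which makes UDP-glucuronic acid, read 159, 141, 265 and 135 CPM in eGFP and 146, 143, 116 and 136 CPM in Lpcat3 livers, with eGFP replicate 3 apart. Ugp2, which makes UDP-glucose, was at 479.5 ± 41.7 against 432 ± 13.6 CPM, and Gusb, the lysosomal glucuronidase, at 37.1 ± 4.51 against 33.0 ± 3.61 CPM. Of 11 genes for the sulfate donor PAPS, 7 were above 0 (median 0.05), with Slc35b2, its Golgi carrier, at 12.9 ± 1.45 against 14.9 ± 1.94 CPM and Papss1, a PAPS synthase, at 11.9 ± 0.571 against 10.7 ± 0.720 CPM (all SD, n = 4 each). Papss2, also a PAPS synthase gene and chosen after seeing its values, went the other way, at 210 ± 70.8 against 257 ± 53.2 CPM. By code Papss2 read 141 to 223 CPM with 1290 and 1317 and 240 to 335 CPM with 1344 and 1345.

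Of 15 glutathione supply genes tested, 9 were above 0 (median 0.02). Oplah, which recycles oxoproline to glutamate, had the smallest p of the list, at 77.2 ± 6.17 against 94.1 ± 7.39 CPM (log2 fold change 0.28, SE 0.08; edgeR unadjusted p = 0.0062, adjusted p = 0.564). Gclc, the catalytic subunit of the enzyme that limits glutathione synthesis, read 390.3, 349.5, 995 and 275 CPM in eGFP and 337, 281, 297 and 275 CPM in Lpcat3 livers, so that eGFP replicate 3 stood apart and the other 3 eGFP libraries overlapped the Lpcat3 ones. Hmox1, another gene that NRF2 drives, was likewise high in that library, at 144 CPM against 24.5 to 43.5 CPM in the other 7. Nqo1, the quinone reductase gene that NRF2 also drives, was not, at 11.5 CPM against 10.5 to 11.7 CPM in the other 3 eGFP libraries. Of 15 NRF2 and AhR target genes tested outside the families, 8 were below 0 and 7 above (median -0.22). In eGFP replicate 3, 8 of the 15 had their highest level, and in Lpcat3 replicate 3, 8 had their lowest. The shares of all genes at these extremes were not worked out. Tiparp, an AhR target, was lower without overlap, at 10.4 to 11.4 CPM in Lpcat3 and 12.02 to 15.1 CPM in eGFP livers (log2 fold change -0.29, SE 0.10; edgeR adjusted p = 0.564). In eGFP replicate 3 the conjugation genes were at their lowest in 24 of 47 cases, as given above. Others, Gsta1 among them (45.8 CPM), were at their highest there.

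Of 6 genes tested from a list of other glutathione transferases, which also held the hydrolase gene Faah, 4 were below 0. Ptges, a prostaglandin E synthase, was at 0.770 ± 0.346 against 0.324 ± 0.168 CPM (edgeR unadjusted p = 0.0175, adjusted p = 0.565) and Hpgds, a prostaglandin D synthase also found in immune cells, at 7.57 ± 1.45 against 5.49 ± 1.99 CPM. Among 18 genes tested from a list of other conjugation enzymes, which also held epoxide hydrolases, 15 were above 0 (median 0.20). Of the 18, 8 had an unadjusted p under 0.05 for the code, all higher with 1344 and 1345, against 12.2% of all genes in either direction. With library totals 3 of the 18 did, against 20.4% of all genes, and 2 did without eGFP replicate 4, against 3.98%. Glyat, which conjugates acids to glycine, was at 177 ± 20.4 against 214 ± 28.6 CPM by group (edgeR unadjusted p = 0.0388, adjusted p = 0.581) and Ephx2, the soluble epoxide hydrolase, at 568 ± 90.7 against 691 ± 105 CPM. Nat8, a kidney and liver N-acetyltransferase gene chosen after seeing its values, passed for the code, at 3.44 ± 0.284 CPM with 1290 and 1317 and 9.25 ± 1.01 CPM with 1344 and 1345 (log2 difference 1.45, SE 0.15; edgeR adjusted p = 0.0229). That call was lost without eGFP replicate 1 (0.108). It was also lost without eGFP replicate 4 or Lpcat3 replicate 1, where a code set holds a single group and the code difference rests on a lone library. The log2 difference was then 1.57 (SE 0.23) and 1.34 (SE 0.19).

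Regulators of phase II genes were above 0 in 14 of 17 cases (median 0.10). Onecut1 (HNF6), a transcription factor of hepatocytes, had the smallest p of the list, at 18.5, 14.8, 11.2 and 16.7 CPM in eGFP and 43.2, 84.3, 55.3 and 55.2 CPM in Lpcat3 livers. The lowest Lpcat3 library was above the highest eGFP library, and the log2 fold change was 1.96 (SE 0.22; edgeR unadjusted p = 8.6e-06, adjusted p = 0.0752). Within the code divisions the log2 difference was 1.57 and 1.92, each resting on a lone library of a group. DESeq2 called Onecut1 between groups (adjusted p = 3.2e-14). Nr1h4, the bile acid receptor FXR, read 123, 122, 114 and 133 CPM against 133, 148, 135 and 141 CPM (log2 fold change 0.18, SE 0.07; edgeR adjusted p = 0.576). The gene of NRF2, Nfe2l2, chosen after seeing its values, stood at 147 ± 14.3 against 131 ± 14.7 CPM.

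Of 13 transporters of conjugates, 9 were above 0 (median 0.05). Abcc2, the canalicular pump for glucuronides and glutathione conjugates chosen after seeing its values, stood at 840.0 ± 14.8 against 836 ± 44.8 CPM. Abcc4, a basolateral pump, was at 15.0 ± 2.81 against 10.1 ± 2.36 CPM (log2 fold change -0.56, SE 0.19; edgeR unadjusted p = 0.0158, adjusted p = 0.564). Slco1a1, an uptake carrier for conjugated steroids and bile acids, read 53.2, 37.8 and 47.1 CPM in eGFP replicates 1 to 3 and 42.7 CPM in Lpcat3 replicate 1, against 178 CPM in eGFP replicate 4 and 270.4, 318 and 161 CPM in Lpcat3 replicates 2, 3 and 4. It passed for the code, with a log2 difference of 2.24 (SE 0.27; edgeR adjusted p = 0.0444), and its group difference in that fit was 0.20 (SE 0.27). The call was lost on leaving out any library but Lpcat3 replicate 3 or 4 (edgeR adjusted p = 0.0590 to 0.545). This is the same division of libraries as in Ugt2b1 and Sult2a8. Of 6 hydrolases tested that reverse conjugation or act beside it, 4 were above 0, with the carboxylesterase Ces1d at 225 ± 90.5 against 335 ± 109 CPM (edgeR adjusted p = 0.631).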

How the data were processed

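Mouse liver RNA was sequenced as 8 libraries, from 1 end for 101 cycles with a stranded kit after removal of ribosomal RNA, per the labels' protocols. The authors deposited raw counts per gene, with rows named by NCBI gene numbers. The submitters' processing notes name bcl2fastq 2.20, DESeq2 and the genome build GRCm39. Aligner, counter and use of strand were not given in the sources used here. Counting without strand would add reads of antisense genes, and counting rules decide how near-identical genes share reads.

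Symbols came from a RefSeq gene table (39397 of 40838 rows matched). All 8 columns joined to a sample by the code in its title, and 0 columns were left over. Library totals were 22433625 to 25651874. The fit used all genes: edgeR 4.0.16 in R 4.3.3, TMM scaling, filterByExpr with a minimum count of 10, a robust quasi-likelihood test, two-sided, with Benjamini-Hochberg adjustment over 17438 genes. The biological coefficient of variation was 16.9%. DESeq2 1.42.0 and limma 3.58.1 were alternatives, and the steps were tested on simulated data. Alternatives also covered scaling, filters, left-out libraries, a block for the replicate number, and the code division. The test of the code term and its settings, the count above 0 and the count without shared sequence were added after seeing the data.

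The members and lists were chosen with earlier results of these data known. Values in every library are given for members with an unadjusted edgeR p under 0.05 and for the most counted member and that with the smallest p in each family, and from each other list up to 2 genes with the smallest p are named. Ugt2b1, Ugt2a3, Sult1b1 and Gstp2, shown by library too, were chosen after their values were seen. No test was made over a family. Exon lengths, shared 101-base windows and coding sequences came from GENCODE M21 and promoters from RefSeq, both on GRCm38 and not the build of the counts.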

Additional observations from a re-analysis of the deposited data

Results flagged for a closer look

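Each group of 4 libraries was searched for a library that stood apart from the other 3, by its gap to the nearest relative to the whole range (Dixon's criterion). Of 94 tests, 2 for each of the 47 genes, 5 were past the limit, and chance passes about 1 in 20. In the eGFP group the library that stood apart was replicate 4, at 545 CPM for Ugt2b1 (276 to 319.9 CPM in the other 3), at 410.4 CPM for Ugt3a2 (301 to 318 CPM) and at 433 CPM for Sult2a8 (137 to 176 CPM). This is the lone eGFP library with code 1344 or 1345. In the Lpcat3 group it was replicate 3, at 1230.4 CPM for Gsta3 (967 to 1005 CPM in the other 3) and at 50.4 CPM for Gsto1 (36.7 to 37.7 CPM).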

How the results depend on the processing

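No setting gave a member an adjusted p under 0.05 between groups, from 0 of 46 or 0 of 47 tested. The number at an unadjusted p under 0.05, 2 in the fit described, was 1 with library totals, 1 without the libraries numbered 3, 1 with the code division as a term, 0 among the 29 members with under 5% of windows shared, and 0 to 9 with each library left out in turn. With the replicate number as a replicate block it was also 1. Of all genes, 8.48% were at that p in the fit described and 4.05% with the code term. That share was not worked out for the other settings, so whether their counts depart from it is not known. The block was not taken as a pairing, because same-numbered libraries did not deviate together (correlations 0.285, -0.069, -0.4 and -0.124). The number above 0, 34, was 22 with library totals, 15 without both libraries numbered 3 and 28 to 35 with each library left out. The number at an unadjusted p under 0.05 for the code, 17, was 11 with library totals and 7 to 20 with each library left out. Of all genes, 20.4% were at that p with library totals and 3.98% to 14.4% with each library left out.

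The Ugt1a median of 0.07 was -0.057 with library totals and -0.013 to 0.20 with each library left out. With library totals the median of all genes was itself -0.13. Signs turned for Ugt2b5 with library totals (-0.017) and with the code term (-0.030), and for Ugt3a2 with library totals (-0.066), without the libraries numbered 3 (-0.044), with the code term (-0.076) and with each library left out (-0.0011 to 0.16). Leaving out each library gave -0.14 to 0.036 for Gstm1. Without the libraries numbered 3 the log2 fold change was -0.042 for Sult1a1, -0.051 for Gsta3, -0.033 for Gstt1, -0.0036 for Gstk1 and -0.029 for Gstz1. The cause was not tested. In the other cases named members kept the sign, and family medians moved by less than their spread over libraries, with these changes of sign. The Gsta median of -0.027 was 0.072 without eGFP replicate 2, 0.069 and 0.0074 without Lpcat3 replicates 1 and 2, 0.14 summed to 1 row and 0.17 for members with many counts. The Gstm median of -0.098 was 0.029 without eGFP replicate 1. Without the libraries numbered 3, Ugt1a was at -0.026, Ugt3a at -0.12, Sult1 at -0.11, Gstt at -0.033 and Gstk, Gstz and Gsto together at -0.026. Ugt1a was also at -0.0016 with limma-voom. The Ugt3a median of 0.042 was -0.072 with library totals, -0.060 with the code term, and -0.036 and -0.040 without eGFP or Lpcat3 replicate 3. Restricting to members with many counts left none for the other Sult family. Depth limits Ugt1a10, Ugt1a8, Sult2a7 and Sult1e1, with 81, 134, 141 and 221 counts over 8 libraries. The 8 libraries limit the rest.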

Other observations

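The 47 genes together held 0.924% of all counts, from 0.845% in eGFP replicate 3 to 0.970% in Lpcat3 replicate 3. Per kb of exon, levels spanned from 1236 CPM per kb for Gstm1 to 0.191 CPM per kb for Ugt1a10. After Gstm1, Ugt2b5, Gstp2 and Gstp1 (296 CPM per kb) came Gsta3 (227), Gstm3 (200.1) and Ugt2b1 (171 CPM per kb). Sult2a8, at 99.1 CPM per kb, and Sult1a1, at 88.2 CPM per kb, led the sulfotransferases, below the leading genes of the UGT and GST classes. The per-kb levels use exon lengths of all annotated transcripts of a gene, and reads shared between near-identical genes enter them as the authors assigned them.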
